A study of Mus musculus with 36 samples.

Results

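The nuclear receptors that sense oxysterols, their partners and the genes through which they export cholesterol were followed across mesenchymal stem cells (MSCs) from 4 tissues. The set comprised 10 of the 24411 genes listed in the expression tables: the liver X receptors Nr1h2 (LXRβ) and Nr1h3 (LXRα), the retinoid X receptors Rxra and Rxrb, and the target genes Abca1, Abcg1, Apoe, Mylip, Lpcat3 and Pltp. The members were chosen by name, as the receptors and well known targets of one pathway, and all 10 passed the filter on low counts. MSCs were cultured from femoral bone marrow (fBM-MSCs), vertebral bone marrow (vBM-MSCs), adipose tissue (A-MSCs) and lung (P-MSCs) of C57BL6/J mice aged 8 weeks. No group was set apart by a treatment: all cells were seeded on collagen I in MesenCult medium with MesenPure and a Rock inhibitor and used within 3 passages. The bone marrow was crushed out of the bone, whereas adipose and lung tissue was digested with collagenase, so the method of isolation and the bone marrow origin cannot be told apart. The tissues came from 3 mice, and which libraries share a mouse was not given. RNA was measured by Smart-seq2 in 2 libraries of vBM-MSCs and 3 of each other tissue; a vBM-MSC replicate 3 is not analysed here. Open chromatin was measured by ATAC-seq, with 1 peak list per tissue.

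Cells take up cholesterol with lipoproteins and make it themselves, and most cannot break it down. When sterol accumulates, oxysterols bind LXR, which sits on DNA as a heterodimer with RXR at direct repeats of a hexamer, and the genes of cholesterol export are switched on: the transporters ABCA1 and ABCG1 move cholesterol to apolipoproteins, APOE carries it in particles, PLTP remodels these particles, and MYLIP (IDOL) marks lipoprotein receptors for degradation. LPCAT3 places polyunsaturated fatty acids in membrane phospholipids. LXRβ is found in most cells, while LXRα is most abundant in liver, fat, gut and macrophages. In MSCs, PPARγ, another partner of RXR, drives the turn to the fat lineage.

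Each of the 11 RNA libraries held between 19569650 and 40517739 expected counts (median 34414200). The 12 MSC markers summed to between 2130 and 5159 TPM (reads scaled for transcript length and library depth) in every library, and the genes of CD29, CD44, CD106 and Sca-1 were found in all. Pdgfra was low in fBM-MSCs, at 0.27 to 0.76 TPM, and Nt5e, the gene of CD73, stayed at or below 0.86 TPM in A-MSCs and P-MSCs and was 0.32 in vBM-MSC replicate 1. Macrophages express several of the 10 genes strongly. The 14 macrophage markers summed to 40.5 to 52.2 TPM in the fBM-MSCs, 24.7 to 46.0 in the vBM-MSCs, 19.1 to 27.8 in the A-MSCs and 15.1 to 17.1 in the P-MSCs. Of the 14, Fcgr1 was at 0 in all libraries, and Ptprc (the gene of CD45), Adgre1, Itgam, Mrc1, Mpeg1, Tyrobp, C1qa, C1qb and C1qc stayed at or below 0.80 TPM. Lyz2, a lysozyme gene, followed the bone marrow origin, with 19.8 to 38.6 TPM in the bone marrow libraries and 1.76 to 12.8 in the others. Csf1r was lower in the bone marrow libraries (0.60 to 1.16 TPM) than in the A-MSCs (5.46 to 6.56) and P-MSCs (2.21 to 2.76), Cd68 was highest in the fBM-MSCs (12.3 to 18.5) and lowest in the vBM-MSCs (0.87 and 2.72), and Cd14 ranged from 1.2 to 5.60. The 7 mesothelial markers were all found in the A-MSCs, with a sum of 77.7 to 95.7 TPM, against at most 12.3 in the bone marrow libraries. In the P-MSCs the sum of 54.8 to 64.0 was nearly all Krt19 (51.7 to 59.8), and Wt1 and Lrrn4 were at 0. The 7 endothelial markers summed to at most 1.19 TPM in the bone marrow libraries, 2.55 to 8.29 in the P-MSCs and 3.40 to 55.3 in the A-MSCs, of which replicate 1 stood apart with 49.5 TPM of Emcn and 3.84 of Pecam1. The 6 epithelial markers summed to 4.76 to 12.4 TPM in the A-MSCs and at most 0.77 elsewhere, and the 5 erythroid markers to at most 0.78 in all libraries. The part of these cell types in the results was not tested. These are bulk samples, so that fewer cells of a type and less RNA per cell cannot be told apart.

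Of the 10 genes, 7 differed among the 4 tissues: Nr1h2, Rxra, Abcg1, Apoe, Mylip, Lpcat3 and Pltp. The test was edgeR's quasi-likelihood test on the counts of 12509 genes, with a Benjamini-Hochberg adjusted p under 0.05, by which 60.6% of all tested genes were called. Nr1h3, Rxrb and Abca1 were not called, with adjusted p of 0.57, 0.72 and 0.13. Between the 5 bone marrow and the 6 non-bone marrow libraries, 5 of the 10 genes were higher in bone marrow MSCs (Nr1h2, Rxra, Abcg1, Mylip and Pltp), where 24.8% of all genes were higher. None was lower by the test, where 22.4% of all genes were lower; at an unadjusted p under 0.05 none of the 10 was lower either, and the DESeq2 test called none lower. The median log2 fold change of the 10 genes in this comparison was 0.83, beside 0.03 over all tested genes. Between pairs of tissues, the number of the 10 genes called was 1 for fBM-MSCs against vBM-MSCs (12.8% of all genes), 5 for fBM-MSCs against A-MSCs (40.9%), 6 for fBM-MSCs against P-MSCs (47.7%), 3 for vBM-MSCs against A-MSCs (25.6%), 4 for vBM-MSCs against P-MSCs (38.7%) and 2 for A-MSCs against P-MSCs (30.9%). The pairs share libraries and are not independent of each other.

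**Figure D1:**
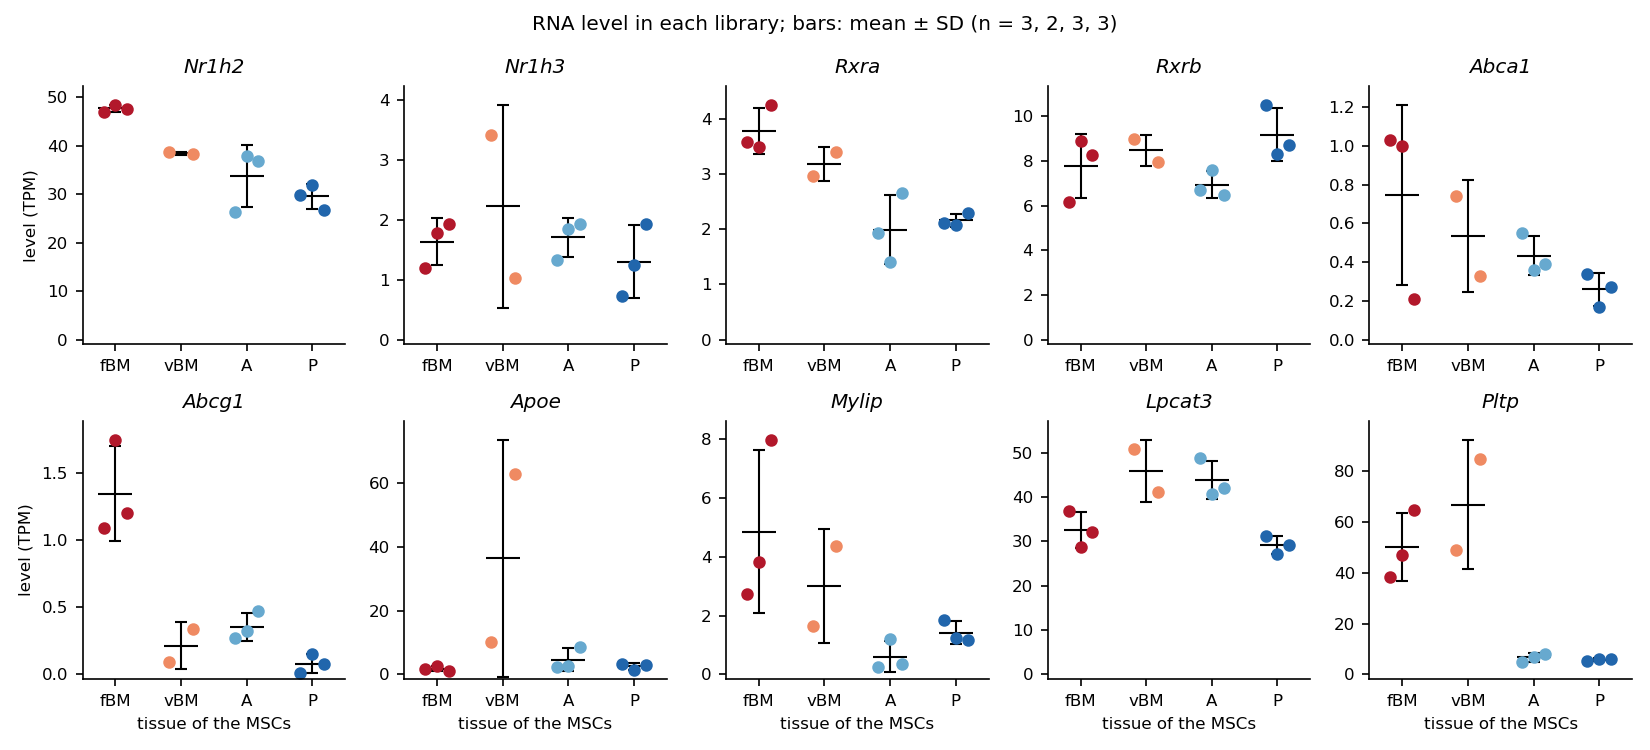
RNA level of each of the 10 genes in TPM (vertical axes, each with its own scale from 0) in every library of the 4 tissues; points are libraries and bars the mean ± SD. Pltp sits between 38.3 and 85.0 TPM in the 5 bone marrow libraries and between 4.93 and 8.22 in the other 6, while the 2 vBM-MSC libraries of Apoe lie far apart.

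Among the receptors, LXRβ was the abundant one and was highest in fBM-MSCs. Nr1h2 had 47.0, 48.4 and 47.7 TPM in the fBM-MSCs, 38.7 and 38.2 in the vBM-MSCs, 26.3, 37.9 and 36.9 in the A-MSCs and 29.9, 32.0 and 26.7 in the P-MSCs. In TPM the bone marrow libraries lay above all others, though vBM-MSC replicate 2 was only just above A-MSC replicate 2. The fBM-MSCs lay above the vBM-MSCs, while the libraries of A-MSCs and P-MSCs overlapped. In bone marrow MSCs, Nr1h2 was higher by a log2 fold change of 0.45 (SE 0.11, edgeR adjusted p = 0.0055), and this call held under all 17 alternative settings, with log2 fold changes of 0.37 to 0.50. The largest difference was that of fBM-MSCs from P-MSCs, at 0.82 (SE 0.15, adjusted p = 0.00083), whereas fBM-MSCs and vBM-MSCs did not differ by the test (0.35, SE 0.17, adjusted p = 0.19). Nor did vBM-MSCs and A-MSCs (0.080, SE 0.16, adjusted p = 0.76).

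The smaller called differences of Nr1h2 were near the threshold, and their calls did not hold in every fit with fewer libraries. The log2 fold change of fBM-MSCs against A-MSCs was 0.43 (edgeR adjusted p = 0.036). It was lost when fBM-MSC replicate 1 (0.41, adjusted p = 0.073), 2 (0.44, 0.069) or 3 (0.43, 0.065) was left out, without A-MSC replicate 1 (0.27, 0.11) and without P-MSC replicate 1 (0.43, 0.052), and with the 2 tissues fitted alone (0.43, 0.065). That of vBM-MSCs against P-MSCs was 0.47 (adjusted p = 0.040) and was lost without vBM-MSC replicate 1 (0.36, adjusted p = 0.21) or P-MSC replicate 1 (0.49, 0.077), 2 (0.53, 0.055) or 3 (0.39, 0.13), without a filter on low counts (0.46, 0.053) and with limma on log2(TPM + 1) (0.37, 0.069) or log2(TPM + 0.1) (0.38, 0.070). The genes whose log2 CPM followed that of Nr1h2 most closely over the 11 libraries were Clcn7, Pgls and Hyi (r = 0.97, 0.96 and 0.95). Such correlations, here and for the other genes, describe 11 points that share 4 tissues.

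LXRα was low in all 4 tissues. Nr1h3 had 1.19, 1.78 and 1.93 TPM in the fBM-MSCs, 3.42 and 1.02 in the vBM-MSCs, 1.33, 1.85 and 1.93 in the A-MSCs and 0.72, 1.24 and 1.93 in the P-MSCs. All tissues overlapped, and no pair was called. The log2 fold change of bone marrow against non-bone marrow was 0.42 (SE 0.43, edgeR adjusted p = 0.45), and without vBM-MSC replicate 1, the highest library, it was −0.23. In every library the TPM of Nr1h2 exceeded that of Nr1h3, by 11.3 to 41.5 times (median 24.7, n = 11).

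Of the RXR genes, Rxra was higher in bone marrow MSCs and Rxrb was not called in any comparison. Rxra had 3.58, 3.5 and 4.26 TPM in the fBM-MSCs, 2.97 and 3.40 in the vBM-MSCs, 1.93, 1.40 and 2.66 in the A-MSCs and 2.11, 2.08 and 2.30 in the P-MSCs. The order was fBM-MSCs, vBM-MSCs, P-MSCs and A-MSCs, and only the last pair overlapped. In bone marrow MSCs Rxra was higher by a log2 fold change of 0.73 (SE 0.17, edgeR adjusted p = 0.0047), a call that held under all 17 alternatives (0.55 to 0.87). Against single tissues, fBM-MSCs were higher than A-MSCs by 0.84 (SE 0.23, adjusted p = 0.014) and than P-MSCs by 0.92 (SE 0.23, adjusted p = 0.0071). The corresponding values of vBM-MSCs, 0.54 (adjusted p = 0.15) and 0.62 (adjusted p = 0.078), were not called. Ldoc1l, Gfra4 and D10Jhu81e followed Rxra most closely (r = 0.97, 0.95 and 0.95).

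Rxrb had 6.16, 8.87 and 8.26 TPM in the fBM-MSCs, 8.97 and 7.97 in the vBM-MSCs, 6.71, 7.61 and 6.46 in the A-MSCs and 10.5, 8.32 and 8.70 in the P-MSCs. Neighbours in this order overlapped throughout, from P-MSCs at the top to A-MSCs, and the log2 fold change of bone marrow against non-bone marrow was 0.04 (SE 0.14, edgeR adjusted p = 0.85), or −0.05 without vBM-MSC replicate 1. Rxrb exceeded Rxra in TPM in every library, by 1.72 to 5.44 times. The third RXR gene, Rxrg, did not pass the filter on low counts and reached at most 0.73 TPM.

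**Figure D2:**
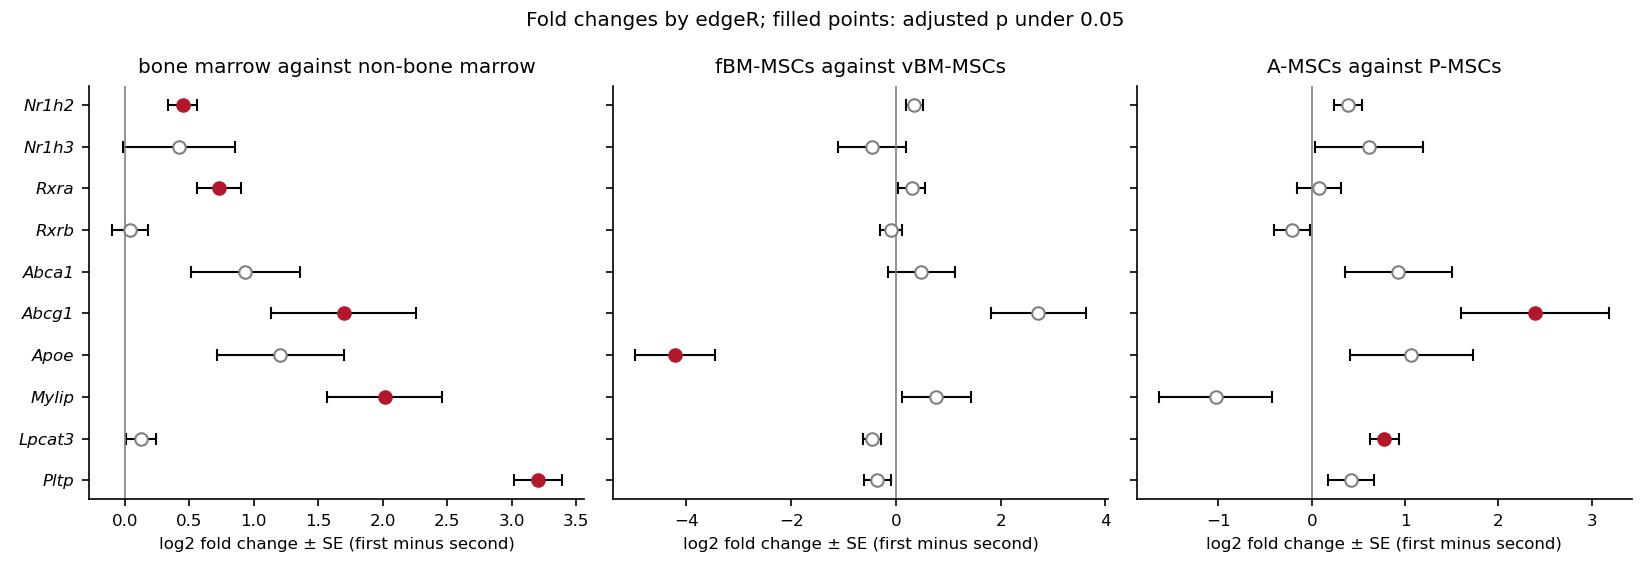
log2 fold change ± SE of the 10 genes (horizontal axes, each panel with its own scale) in bone marrow against non-bone marrow MSCs, fBM-MSCs against vBM-MSCs and A-MSCs against P-MSCs; filled points had an edgeR adjusted p under 0.05. In bone marrow MSCs, 5 genes were called higher, with Pltp farthest to the right at 3.21, and Apoe was the only gene called between fBM-MSCs and vBM-MSCs, at −4.22.

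The 2 sterol exporters were at low levels, and Abcg1 was the one that differed among tissues. Abcg1, which moves cholesterol to HDL particles, had 1.09, 1.75 and 1.2 TPM in the fBM-MSCs, 0.09 and 0.34 in the vBM-MSCs, 0.27, 0.32 and 0.47 in the A-MSCs and 0.01, 0.15 and 0.08 in the P-MSCs. The fBM-MSCs lay above all other libraries, and the other 3 tissues overlapped with their neighbours. The expected counts behind these values were 83 to 219 in the fBM-MSCs, 10 and 47 in the vBM-MSCs, 32 to 68 in the A-MSCs and 1 to 18 in the P-MSCs, so that the P-MSC level rests on few reads.

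Abcg1 was higher in fBM-MSCs than in P-MSCs by a log2 fold change of 4.25 (SE 0.84, edgeR adjusted p = 0.0015), and this call held under all 18 alternatives, at 1.11 (limma on log2(TPM + 1), which understates changes of low genes) to 5.09. For fBM-MSCs against vBM-MSCs the value was 2.72 (SE 0.90, adjusted p = 0.071), and against A-MSCs 1.86 (SE 0.74, adjusted p = 0.065), neither of which was called. In bone marrow against non-bone marrow MSCs it was 1.70 (SE 0.56, adjusted p = 0.027). This was lost without fBM-MSC replicate 2 (1.60, adjusted p = 0.066), vBM-MSC replicate 2 (1.12, 0.18), A-MSC replicate 1 (1.61, 0.056) or 2 (1.66, 0.052), or P-MSC replicate 3 (1.71, 0.052), and it did not describe the vBM-MSCs, of whose libraries 1 lay below and 1 within the range of the A-MSCs. For A-MSCs against P-MSCs it was 2.40 (SE 0.79, adjusted p = 0.039), lost without A-MSC replicate 1 (2.57, adjusted p = 0.055), 2 (2.46, 0.064) or 3 (2.12, 0.11), P-MSC replicate 1 (1.83, 0.072) or 3 (2.43, 0.10), or fBM-MSC replicate 2 (2.40, 0.061), and with limma on log2(TPM + 1) (0.32, 0.12). Zeb2, Hoxa9 and Slc29a3 followed Abcg1 most closely (r = 0.95, 0.95 and 0.94).

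Abcg1 (chromosome 17, 31057694 to 31117984, plus strand, GRCm38) had no ATAC-seq summit within 1 kb of its start in any tissue, also with all summits of the lists taken. Only 1 region within 50 kb of the gene was found in all 4 tissues. It lies in an intron, 16474 bases after the start, with a fold enrichment over the genome-wide background of 10.3 in the fBM-MSCs, 8.09 in the vBM-MSCs, 21.0 in the A-MSCs and 18.4 in the P-MSCs. The fBM-MSCs, with the most Abcg1 RNA, thus had a lower value there than A-MSCs and P-MSCs, in lists without replicates. The other 2 regions were each in 1 list: that of fBM-MSCs had 7.73, 104822 bases after the start and nearer to Tff1, and that of vBM-MSCs had 6.25, 45892 bases before the start. The 201 bases around its summit, chr17:31074068-31074268 on the plus strand, are shown because no other region near the gene was shared, and they held no DR4 element, the LXR element described with Abca1.
Abcg1 intronic summit: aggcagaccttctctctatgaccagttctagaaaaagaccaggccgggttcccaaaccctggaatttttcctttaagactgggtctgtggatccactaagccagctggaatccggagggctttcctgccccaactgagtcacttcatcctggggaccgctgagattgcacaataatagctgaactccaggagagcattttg

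Abca1, the transporter that loads cholesterol and phospholipid onto lipid-poor APOA1, had 1.03, 1.0 and 0.21 TPM in the fBM-MSCs, 0.74 and 0.33 in the vBM-MSCs, 0.55, 0.36 and 0.39 in the A-MSCs and 0.34, 0.17 and 0.27 in the P-MSCs. Only A-MSCs and P-MSCs did not overlap as neighbours in this order, and fBM-MSC replicate 3 was as low as the P-MSCs. The log2 fold change in bone marrow MSCs was 0.94 (SE 0.42, edgeR adjusted p = 0.091); without fBM-MSC replicate 3 it was 1.16 and passed the test (adjusted p = 0.011). Of the pairs, fBM-MSCs against P-MSCs was called at 1.64 (SE 0.58, adjusted p = 0.037). That call was lost without fBM-MSC replicate 1 (1.30, adjusted p = 0.12) or 2 (1.41, 0.11) and without P-MSC replicate 1 (1.90, 0.053), 2 (1.40, 0.12) or 3 (1.66, 0.087), with the 2 tissues fitted alone (1.64, 0.054) and with limma on log2(TPM + 1) (0.43, 0.092) or log2(TPM + 0.1) (1.04, 0.12).

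LXR and RXR bind DR4 elements, which are 2 copies of the hexamer AGGTCA in the same direction with 4 bases between them (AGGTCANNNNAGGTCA), and the Abca1 promoter is known for such an element. Both strands were searched. The promoter table used for GRCm38 held 14 sequences (250 bases before to 50 after a start) for 9 of the 10 genes. The promoters of Abcg1 and of 1 of the 3 curated starts of Rxra were not in it and were not searched. With at most 2 mismatches over the 12 letters, none of the 14 had a match, where 3.02% of 32851 promoters had one. With 3 mismatches, a setting added after the first search, 2 of the 14 had one, those of Abca1 and of an alternative start of Rxra, where 21.9% of all promoters did. The Abca1 promoter, chr4:53159846-53160145 on the minus strand, is shown for this match, in capitals, whose first base lies 67 bases before the start. It reads GGGTTACTACCGGTCA on the other strand.
Abca1 promoter: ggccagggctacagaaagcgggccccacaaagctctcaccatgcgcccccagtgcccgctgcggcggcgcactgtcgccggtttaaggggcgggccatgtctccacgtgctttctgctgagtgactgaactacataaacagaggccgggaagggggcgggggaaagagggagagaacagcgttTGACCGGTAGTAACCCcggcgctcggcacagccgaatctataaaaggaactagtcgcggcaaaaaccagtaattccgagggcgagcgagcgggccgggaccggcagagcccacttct
An ATAC-seq summit lay within 98 bases of the start in each of the 4 lists, with a fold enrichment of 12.1 in the fBM-MSCs, 12.5 in the vBM-MSCs, 14.3 in the A-MSCs and 10.3 in the P-MSCs. A summit in an intron, 1085 bases after the start, had 9.56 in fBM-MSCs and 5.52 in each of the other tissues. The 201 bases around this summit also held 1 DR4 match with 3 mismatches.

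Pltp, whose product transfers phospholipid between lipoproteins, was the gene of the set with the largest difference by bone marrow origin. It had 38.3, 47.2 and 64.6 TPM in the fBM-MSCs and 48.8 and 85.0 in the vBM-MSCs. The A-MSCs had 4.93, 7.01 and 8.22 TPM and the P-MSCs 5.16, 6.04 and 6.17. The lowest bone marrow library was thus far above the highest of the others, while the libraries within each of these 2 origins overlapped. The log2 fold change was 3.21 (SE 0.18, edgeR adjusted p = 2.4e-07), a fold of 9.22, and it stayed between 2.99 and 3.34 under all 17 alternatives. Each bone marrow tissue was called higher than each other tissue, from 2.82 for fBM-MSCs against A-MSCs to 3.59 for vBM-MSCs against P-MSCs. Neither fBM-MSCs against vBM-MSCs (−0.35, SE 0.25, adjusted p = 0.40) nor A-MSCs against P-MSCs (0.42, SE 0.24, adjusted p = 0.21) was called. Aga, Wif1 and Pld3 followed Pltp most closely (r = 0.99 each).

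Pltp (chromosome 2, 164839518 to 164857708, minus strand) shares up to 311 bases of exon with Ctsa, the gene of the lysosomal protective protein cathepsin A, and Smart-seq2 reads carry no strand, so that reads of this stretch cannot be told apart. Ctsa itself had 129 to 236 TPM in the bone marrow and 80.1 to 107 in the other libraries, a log2 fold change of 0.90 (SE 0.12, edgeR adjusted p = 0.00010). That was less than the 3.21 of Pltp, and the part of shared reads was not tested. The Pltp promoter, chr2:164857659-164857958 on the minus strand, is shown because, of the 10 genes, Pltp had the largest log2 fold change of bone marrow against non-bone marrow MSCs in RNA. It held no DR4 match with up to 3 mismatches.
Pltp promoter: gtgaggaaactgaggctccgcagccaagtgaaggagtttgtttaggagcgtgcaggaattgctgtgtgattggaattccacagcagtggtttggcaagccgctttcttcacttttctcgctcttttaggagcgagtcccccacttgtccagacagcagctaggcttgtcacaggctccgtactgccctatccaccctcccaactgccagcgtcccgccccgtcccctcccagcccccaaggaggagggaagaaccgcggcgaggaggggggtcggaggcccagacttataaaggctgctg
The highest summit within 1 kb of this start had a fold enrichment of 9.56 in the fBM-MSCs, 11 in the vBM-MSCs, 9.93 in the A-MSCs and 9.20 in the P-MSCs. Of 13 regions within 50 kb of Pltp, 6 were found in all tissues, 2 in bone marrow lists alone, both in that of fBM-MSCs, and 3 in A-MSC or P-MSC lists alone. The region 9700 bases before the start had 6.62 in the fBM-MSCs, 8.83 in the vBM-MSCs, 15.1 in the A-MSCs and 9.93 in the P-MSCs.

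Apoe, the gene of an apolipoprotein that receptors on cells recognise to take up particles, was highest in vBM-MSCs, and there unevenly. It had 10.2 TPM in replicate 1 and 62.8 in replicate 2 of the vBM-MSCs (36.5 ± 37.2, SD, n = 2). The fBM-MSCs had 1.74, 2.60 and 1.11 TPM, the A-MSCs 2.37, 2.72 and 8.74 and the P-MSCs 3.26, 1.34 and 2.90. Both vBM-MSC libraries lay above all 9 others, whose tissues overlapped as neighbours. The log2 fold change of fBM-MSCs minus vBM-MSCs was −4.22 (SE 0.76, edgeR adjusted p = 0.0050), and vBM-MSCs were higher than P-MSCs by 3.85 (SE 0.74, adjusted p = 0.0018). These 2 calls held under all 18 alternatives, at −4.96 to −2.61 and 2.25 to 4.59, respectively.

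Against A-MSCs the log2 fold change of Apoe in vBM-MSCs was 2.78 (SE 0.71, edgeR adjusted p = 0.015), and it was lost without vBM-MSC replicate 2 (1.18, adjusted p = 0.33), A-MSC replicate 1 (2.47, 0.051) or A-MSC replicate 2 (2.52, 0.055). In bone marrow against non-bone marrow MSCs it was 1.21 (SE 0.49, adjusted p = 0.062). The DESeq2 test called this comparison (adjusted p = 0.025), as did the fit without a filter on low counts (0.045) and those leaving out vBM-MSC replicate 1 (1.58, 0.015), fBM-MSC replicate 3 (1.35, 0.046) or A-MSC replicate 3 (1.62, 0.016), although the fBM-MSCs were no higher than the other tissues. The A-MSC library with the most Apoe, replicate 3, was also the one with the most Adipoq, an adipocyte hormone gene, at 14.6 TPM against at most 3.87 in the other libraries. The 8 adipocyte markers summed to 43.6 to 165 TPM in the A-MSCs, 22.0 to 63.1 in the vBM-MSCs, 27.4 to 64.2 in the fBM-MSCs and 2.68 to 3.84 in the P-MSCs. In vBM-MSCs, where Apoe was 10.2 TPM in replicate 1 and 62.8 in replicate 2, Adipoq was at 0 and 3.87 TPM. Of the macrophage markers, Lyz2 (19.8 and 38.6), Cd68 (0.87 and 2.72), Cd14 (2.61 and 3.13), Tyrobp (0 and 0.58), Mpeg1 (0.04 and 0.19) and Ptprc (0 and 0.10) were also higher in replicate 2. Csf1r (1.16 and 0.61) and C1qc (0.25 and 0.05) were lower there, and the other 6 were at 0 in both. The part of adipocyte or macrophage RNA in the Apoe level was not tested. Zfp456 and Atg16l1 were among the genes that followed Apoe most closely (r = 0.89 each).

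The vBM-MSC list was also the one with summits at Apoe (chromosome 7, 19696244 to 19699188, minus strand). At the promoter 2 summits were found there and none in the other 3 lists at the −log10 q threshold of 7. Both had a fold enrichment of 5.52, and the −log10 q of the higher, 7.13, was just above the threshold. With all summits taken, A-MSCs had 1 as well, at a fold enrichment of 4.05. A further region of vBM-MSCs alone had its summit 1972 bases before the nearest start, with 8.46. The lists of fBM-MSCs, A-MSCs and P-MSCs had no summit at these 3 regions at the threshold, but all 4 lists had the summit 16521 bases before the start, next to Tomm40, at 63.6 to 76.1. The promoter of the start nearest to 1 of the vBM-MSC summits, chr7:19698572-19698871, and the 201 bases around the upstream summit, chr7:19701060-19701260, both on the minus strand, are shown since open chromatin was listed there in vBM-MSCs alone.
Apoe promoter: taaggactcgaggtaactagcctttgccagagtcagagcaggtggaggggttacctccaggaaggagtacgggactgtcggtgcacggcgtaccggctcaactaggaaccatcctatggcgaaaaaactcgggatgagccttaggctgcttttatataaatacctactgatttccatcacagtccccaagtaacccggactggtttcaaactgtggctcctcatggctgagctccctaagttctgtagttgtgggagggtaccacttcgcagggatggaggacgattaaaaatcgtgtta
Apoe upstream summit: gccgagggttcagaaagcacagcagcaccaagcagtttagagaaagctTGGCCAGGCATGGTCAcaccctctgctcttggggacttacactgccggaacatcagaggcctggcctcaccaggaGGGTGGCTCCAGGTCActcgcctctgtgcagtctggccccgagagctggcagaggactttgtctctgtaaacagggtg
The capitals in the upstream sequence mark 2 DR4 matches with 3 mismatches each; the promoter held none.

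Mylip, whose product ubiquitinates lipoprotein receptors, was higher in bone marrow MSCs. It had 2.72, 3.84 and 7.99 TPM in the fBM-MSCs, 1.63 and 4.38 in the vBM-MSCs, 0.25, 1.2 and 0.36 in the A-MSCs and 1.86, 1.24 and 1.2 in the P-MSCs. The libraries of the 2 origins overlapped, because P-MSC replicate 1 was above vBM-MSC replicate 1. The log2 fold change of bone marrow against non-bone marrow was 2.01 (SE 0.44, edgeR adjusted p = 0.0030) and was called under all 17 alternatives, at 1.23 to 2.5. For fBM-MSCs against A-MSCs it was 2.92 (SE 0.63, adjusted p = 0.0036), which also held throughout. The vBM-MSCs were not called higher than P-MSCs (1.11, SE 0.64, adjusted p = 0.20).

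The other calls of Mylip did not hold in every fit. Against P-MSCs, fBM-MSCs were higher by 1.89 (edgeR adjusted p = 0.022), which was lost without fBM-MSC replicate 3 (1.31, adjusted p = 0.10) or P-MSC replicate 2 (1.79, 0.073) or 3 (1.76, 0.077). Against A-MSCs, vBM-MSCs were higher by 2.14 (adjusted p = 0.033), which was lost without vBM-MSC replicate 2 (1.39, adjusted p = 0.25) or A-MSC replicate 1 (1.78, 0.090) or 3 (1.88, 0.10), and with the 2 tissues fitted alone (2.15, 0.074). Zgpat, Gna11 and Gm1045 followed Mylip most closely (r = 0.98, 0.97 and 0.96).

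At Mylip (chromosome 13, 45389742 to 45411940, plus strand) the promoter summit was strong in all tissues and highest in P-MSCs, with a fold enrichment of 21.3 in the fBM-MSCs, 19.5 in the vBM-MSCs, 22.4 in the A-MSCs and 28.0 in the P-MSCs. Of its 7 regions, 4 were in all lists. The intronic region 8338 bases after the start was in the lists of all tissues but A-MSCs, the tissue with the least Mylip RNA, at 6.99 to 7.73. A region 71911 bases after the start, nearer to Gmpr, was in the 2 bone marrow lists alone, at 7.73 and 8.46. The summit in the intron 2021 bases after the start, chr13:45391663-45391863 on the plus strand, is shown for its 2 overlapping DR4 matches with 3 mismatches, which form the run in capitals; it had 6.25 in the fBM-MSCs, 7.36 in the vBM-MSCs, 8.46 in the A-MSCs and 8.83 in the P-MSCs.
Mylip intronic summit: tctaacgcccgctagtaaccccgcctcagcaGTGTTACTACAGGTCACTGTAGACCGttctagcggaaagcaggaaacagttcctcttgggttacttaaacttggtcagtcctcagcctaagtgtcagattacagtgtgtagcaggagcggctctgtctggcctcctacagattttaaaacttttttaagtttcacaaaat

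**Figure D3:**
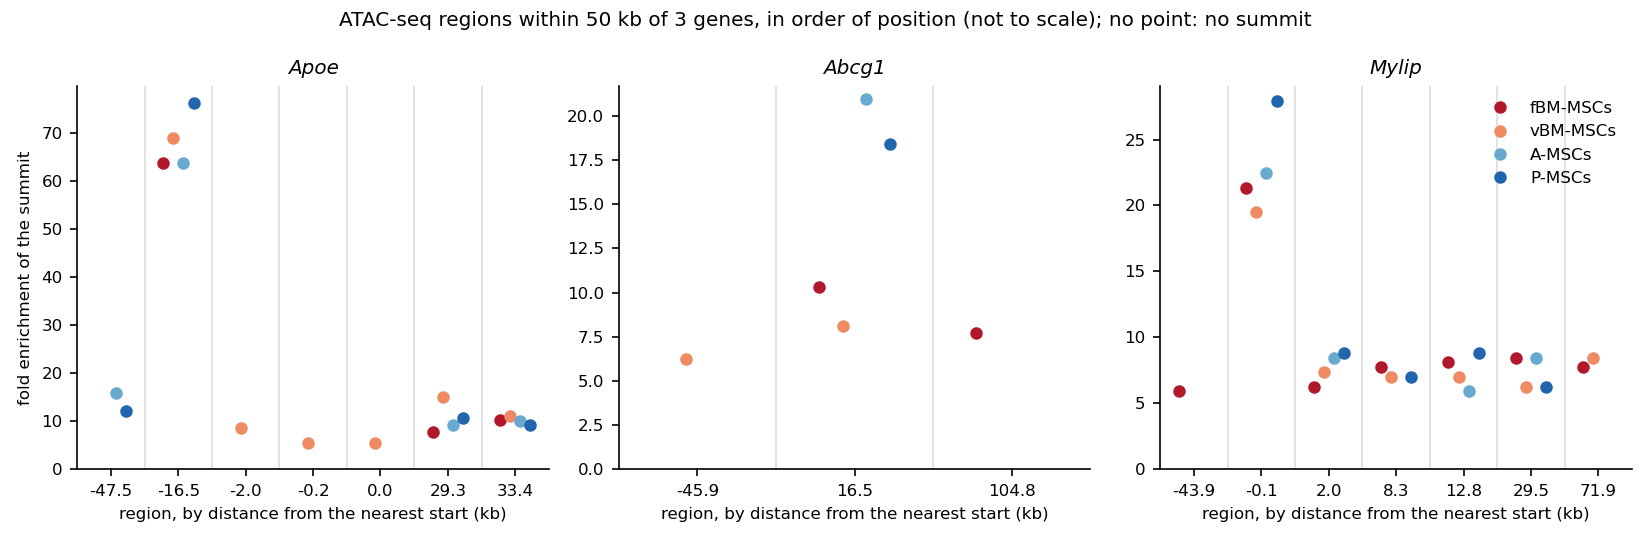
Fold enrichment of the ATAC-seq summits (vertical axes) in each region within 50 kb of Apoe, Abcg1 and Mylip, ordered by distance from the nearest start of the gene in kb; colours are tissues, and a missing point means no summit at the −log10 q threshold of 7. Around the Apoe start the 3 regions hold vBM-MSC points alone, and in the shared Abcg1 region A-MSCs (21.0) and P-MSCs (18.4) are above fBM-MSCs (10.3) and vBM-MSCs (8.09).

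Lpcat3, the lysophospholipid acyltransferase, divided the tissues differently. It had 36.8, 28.7 and 32.1 TPM in the fBM-MSCs, 50.9 and 41.1 in the vBM-MSCs, 48.7, 40.7 and 42.0 in the A-MSCs and 31.2, 27.2 and 29.2 in the P-MSCs. In TPM the vBM-MSCs and A-MSCs overlapped in the upper range and the fBM-MSCs and P-MSCs in the lower, with no library in between. By the edgeR test on counts, however, fBM-MSCs against vBM-MSCs was not called (−0.47, SE 0.17, adjusted p = 0.098). A-MSCs were higher than P-MSCs by a log2 fold change of 0.78 (SE 0.16, edgeR adjusted p = 0.0034), under all 18 alternatives. The vBM-MSCs were higher than P-MSCs by 0.75 (SE 0.17, adjusted p = 0.0050), which without vBM-MSC replicate 1 was 0.48 and not called (adjusted p = 0.069). A-MSCs were higher than fBM-MSCs (−0.50 for fBM-MSCs minus A-MSCs, SE 0.15, adjusted p = 0.024). This was lost without fBM-MSC replicate 2 (−0.39, adjusted p = 0.090) or 3 (−0.49, 0.051) or A-MSC replicate 1 (−0.42, 0.082). Between bone marrow and non-bone marrow the value was 0.13 (SE 0.12, adjusted p = 0.40), and without vBM-MSC replicate 1 it was −0.0085. Tmem263, Ndufb2 and Tmem167 followed Lpcat3 most closely (r = 0.98, 0.97 and 0.97).

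Lpcat3 (chromosome 6, 124663104 to 124704716, plus strand) shares up to 289 bases of exon with Emg1, a ribosome biogenesis gene, whose log2 fold change in bone marrow MSCs was −0.69 (edgeR adjusted p = 0.00019), and reads of that stretch cannot be told apart. Its promoter summit was the highest of the 10 genes, with a fold enrichment of 26.1 in the fBM-MSCs, 33.8 in the vBM-MSCs, 32.7 in the A-MSCs and 39.0 in the P-MSCs. P-MSCs, with the lowest RNA level, thus had the highest value. Of 11 regions, 3 were in A-MSC or P-MSC lists alone and none in bone marrow lists alone.

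Of the 10 genes, 8 had a promoter summit in all 4 lists, among them 5 of the 7 that differed among tissues in RNA. The other 2, Abcg1 and Apoe, did not. A summit within 1 kb of a curated RefSeq start was found for 8 of the 10 genes in the fBM-MSCs (87.1% of 11518 tested genes), 9 in the vBM-MSCs (89.0%), 8 in the A-MSCs (89.7%) and 8 in the P-MSCs (88.8%). Abcg1 had none, and Apoe had one in vBM-MSCs. At a stricter −log10 q of 20 the counts were 5 in the fBM-MSCs (63.6% of the tested genes), 6 in the vBM-MSCs (69.1%), 5 in the A-MSCs (70.5%) and 5 in the P-MSCs (71.6%). At Nr1h2 the highest promoter summit had a fold enrichment of 11.8 in the fBM-MSCs, 13.6 in the vBM-MSCs, 16.6 in the A-MSCs and 12.9 in the P-MSCs, so that the tissue with the most Nr1h2 RNA had the lowest value. At Rxra it was 6.99, 9.20, 7.73 and 7.36, and at Nr1h3, the weakest promoter with a summit in all lists, 5.89, 5.89, 5.52 and 6.62, in the same order of tissues. Rxrb had 18.8, 15.8, 19.1 and 17.7, at a summit that lies nearer to the start of Slc39a7.

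For the 8 genes with a promoter summit in all 4 lists, the mean log2 fold enrichment of the bone marrow lists minus that of the others ranged from −0.30 at Mylip to 0.10 at Pltp (median −0.07), against a median of −0.15 and a range from the 5th to the 95th percentile of −0.61 to 0.28 over 9573 genes. None of the 8 lay outside that range. Each tissue had 1 list, so these values have no replicate error.

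**Figure D4:**
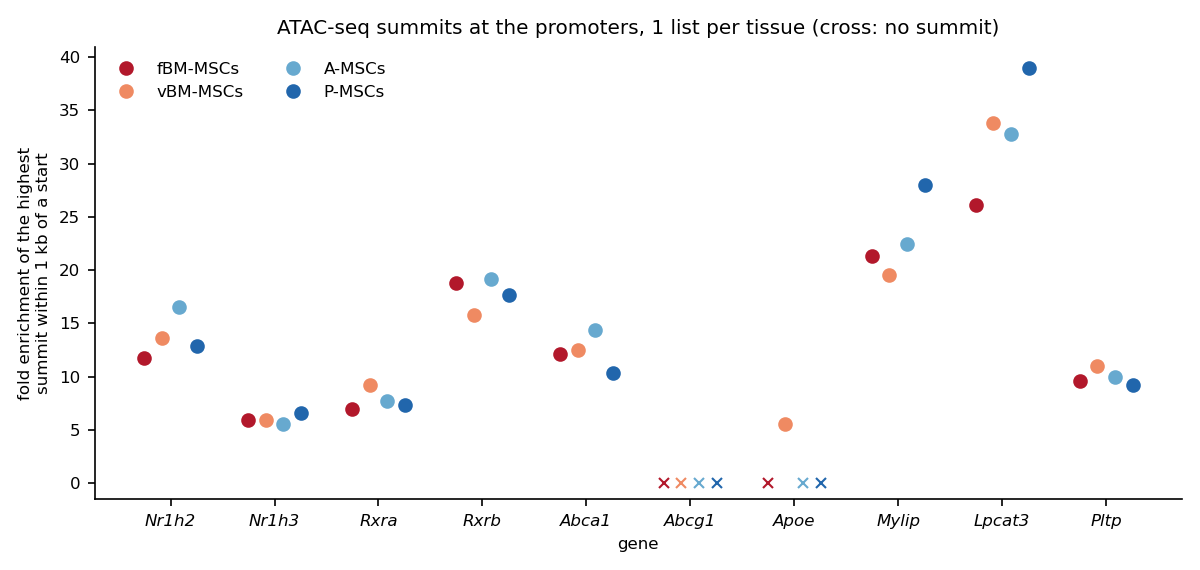
Fold enrichment of the highest ATAC-seq summit within 1 kb of a start (vertical axis) of each gene (horizontal axis) in the 4 tissues, 1 list each; crosses mark genes without a summit. The 4 values of Pltp lie between 9.20 and 11, Abcg1 has 4 crosses, and Apoe has a point for vBM-MSCs alone.

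Within 50 kb of the 10 genes there were 101 regions. In all 4 lists 46.5% of them were found, against 32.0% of 89849 regions in the genome, 22.8% in bone marrow lists alone (22.0% of all) and 10.9% in A-MSC or P-MSC lists alone (24.0% of all). These regions lie near genes and share neighbourhoods, and no test was made. With at most 2 mismatches, 1 of the 101 windows of 201 bases around their highest summits held a DR4 match, in an intron of Rxra and in fBM-MSCs alone, against 2.19% of all windows; with 3 mismatches 24 did, against 16.3%. Of the genes, Rxra had the most regions, 24, of which 11 were in introns and 11 in all tissues.

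Other genes of LXR and RXR biology changed in both directions. Of 80 listed, 59 were tested, and in bone marrow MSCs edgeR called 14 higher (23.7%) and 16 lower (27.1%), shares near those of all tested genes, 24.8% and 22.4%. Their median log2 fold change was −0.0024.

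Among the nuclear receptors that pair with RXR, 4 of 9 tested were higher and 2 lower. The thyroid hormone receptor genes Thra (1.32, adjusted p = 0.0033) and Thrb (1.22, adjusted p = 0.0051) were higher. So were Rarg, a retinoic acid receptor gene (1.02, adjusted p = 7.5e-05), and Pparg, the adipogenic receptor gene (0.97, adjusted p = 0.015). Thrb was carried by the fBM-MSCs (2.26 to 5.07 TPM), since vBM-MSCs (0.52 and 1.44) overlapped A-MSCs and P-MSCs (0.47 to 1.22). Nr4a2, an orphan receptor gene, was lower (−1.10, adjusted p = 0.0016), but its P-MSC libraries stood alone at 19.1 to 30.0 TPM, and those of A-MSCs (5.28 to 7.65) lay within the bone marrow range (4.55 to 9.51). The Pparg levels overlapped, at 4.67 to 12.7 TPM in the bone marrow and 2.26 to 5.94 in the other libraries. Of the other receptors and cofactors, 4 of 12 were higher and 2 lower. The coactivator genes Ncoa1 (1.25, adjusted p = 0.0091) and Ncoa2 (0.51, adjusted p = 0.039) and the corepressor complex gene Tbl1xr1 (0.82, adjusted p = 0.0019) were higher, and Gps2, also of that complex, was lower (−0.54, adjusted p = 0.027). The A-MSCs alone were low in Ncoa2, at 0.47 to 0.67 TPM, since the P-MSCs (1.35 to 1.9) had a higher mean than either bone marrow tissue. For Tbl1xr1 the P-MSCs overlapped the bone marrow libraries, and for Gps2 the A-MSCs did. Srebf1, a master gene of fatty acid synthesis and an LXR target, was higher by 0.29 (adjusted p = 0.014), with 13.3 to 20.6 TPM against 11.2 to 17.0.

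None of the 10 lipid synthesis targets was higher in bone marrow MSCs, and 6 were lower. Elovl6, which elongates fatty acids, was lower by 0.97 on the log2 scale (−0.97, adjusted p = 5.3e-05), but its P-MSC libraries stood alone, at 9.41 to 11 TPM, and those of A-MSCs (2.40 to 3.19) overlapped the bone marrow. Fads2, a desaturase gene (−0.94, adjusted p = 0.00016), was lowest in fBM-MSCs, at 8.38 to 14.2 TPM against 25.6 to 28.0 in vBM-MSCs. Elovl5 (−0.76, adjusted p = 0.00011) and Lpcat1 (−0.72, adjusted p = 0.0079) were lower too. For Lpcat1 the P-MSCs were highest, at 14.8 to 21.4 TPM, and the A-MSCs (9.03 to 10.2) lay within the bone marrow range (4.89 to 13.6).

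Of the other genes of sterol export and lipoproteins, 6 of 16 were tested, 2 of them higher and 2 lower. Apod, a lipocalin gene, was higher by 3.94 (adjusted p = 7.9e-05), with 7.58 and 10.4 TPM in vBM-MSCs and at most 1.90 elsewhere. Abca2, a transporter of late endosomes, was higher by 1.80 (adjusted p = 7.7e-05). Its fBM-MSC libraries stood alone at 2.63 to 4.31 TPM, and the vBM-MSCs (1.02 and 1.57) overlapped the P-MSCs (0.75 to 1.07). Lpl, which releases fatty acids from lipoproteins, was lower (−2.26, adjusted p = 0.021), but only the A-MSCs stood alone, at 14.7 to 20.4 TPM, and a vBM-MSC library (5.79) lay within the range of the P-MSCs (5.38 to 5.84). Also lower was the HDL receptor gene Scarb1 (−0.48, adjusted p = 0.014), of which the A-MSCs (25.5 to 28.5 TPM) lay within the bone marrow range (15.4 to 33.6). Of the 15 tested genes of sterol storage, traffic and oxysterols, 2 were higher and 2 lower. Npc2 (1.12, adjusted p = 2.3e-06) and Lipa (0.69, adjusted p = 0.00014), which free cholesterol in lysosomes, were higher. Stard4, a sterol carrier gene (−1.21, adjusted p = 2.3e-05), and Soat1, which esterifies cholesterol (−1.03, adjusted p = 3.3e-05), were lower. The Soat1 levels were highest in A-MSCs, at 198 to 246 TPM, while P-MSCs (61.4 to 74.2) overlapped the bone marrow. Npc1, the partner of NPC2, was not called (0.23, adjusted p = 0.15).

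Of the receptors that MYLIP degrades, Lrp8 was lower (−0.86, edgeR adjusted p = 0.0081) and Vldlr higher (0.62, adjusted p = 0.024) in bone marrow MSCs. In both, the A-MSCs overlapped the bone marrow libraries, and the P-MSCs stood alone, at 1.94 to 3.06 TPM of Lrp8 and 1.26 to 1.35 of Vldlr. Among 4 tested targets of inflammation and phagocytosis, Smpdl3a, a phosphodiesterase gene induced by sterols, was higher by 2.55 (adjusted p = 1.2e-05), at 28.3 to 61.8 TPM in the bone marrow and 2.61 to 15.2 in the other libraries, and the other 3 were not called.

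**Figure D5:**
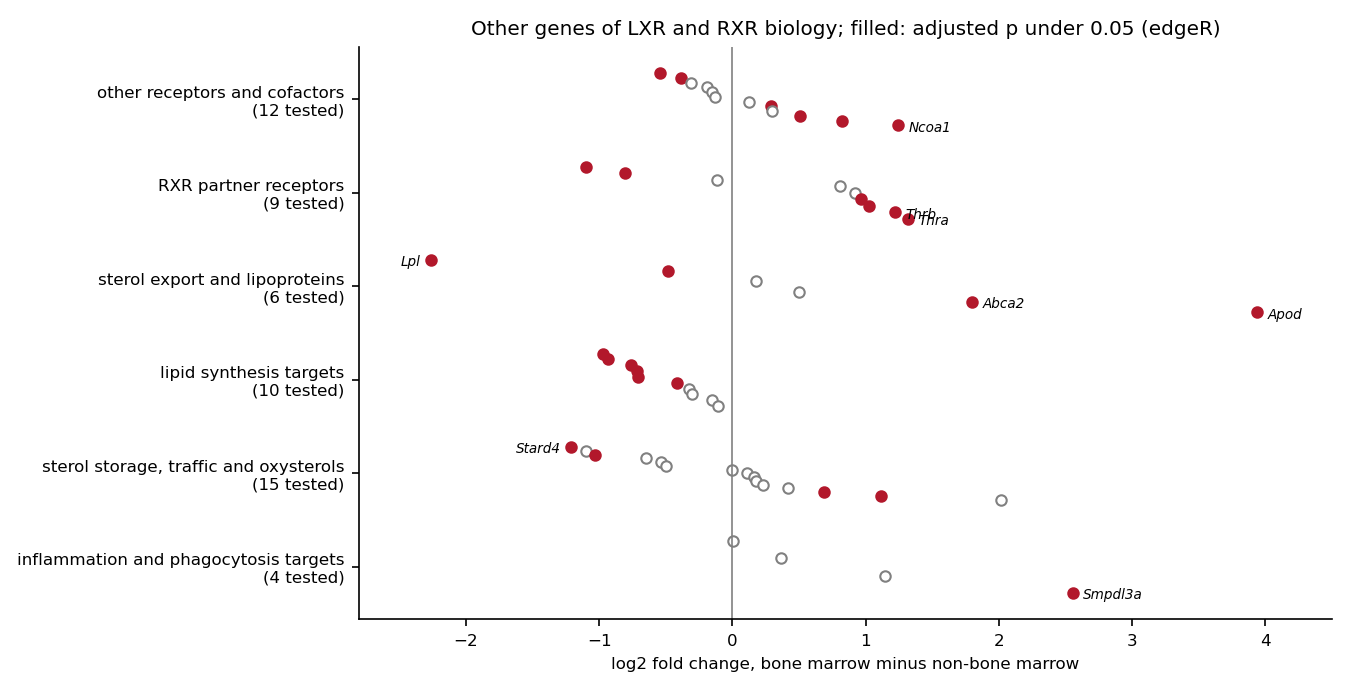
log2 fold change, bone marrow minus non-bone marrow (horizontal axis), of the tested genes of 6 lists around LXR and RXR (rows); filled points had an edgeR adjusted p under 0.05. Of the lipid synthesis targets all filled points lie to the left of 0, while Apod (3.94) and Smpdl3a (2.55) lie far to the right.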

How the data were processed

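RNA was measured by Smart-seq2 in cultured MSCs of 4 tissues and open chromatin by ATAC-seq. The authors aligned RNA reads with STAR within RSEM to mm10 and deposited, for each library, the expected count of each gene, which is not normalized, and its TPM, scaled for transcript length. For ATAC-seq, per the labels, Trim Galore, Bowtie, Picard, bedtools and MACS2 were used. Duplicates were removed and reads shifted to the Tn5 cut. The peak lists deposited by the authors, 1 per tissue over its replicates, give for each summit the fold enrichment over the genome-wide background, a ratio, with its −log10 p and −log10 q and its offset. The software versions were not given in the sources used here.

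After rounding, the quasi-likelihood test of edgeR 4.0.16 (R 4.3.3; TMM, two-sided, Benjamini-Hochberg adjustment) was run in 1 model of 4 tissues over 11 libraries. The 12509 genes tested had at least 1 CPM in 2 or more libraries. All libraries were treated as independent, so p-values measure the spread between these libraries; those that share a mouse could not be matched. On simulated data for bone marrow against non-bone marrow (12230 genes), 65.7% of genes changed by 2-fold and 84.0% of those changed by 4-fold were recovered, with 2.61% false calls. Only 100 genes were changed at each fold there, whereas 5901 of the 12509 genes were called in the measured data. These rates therefore need not hold for the measured data. Replicates of each tissue differed by more than counting noise. Reads had no molecular identifiers, so counts are not independent molecules. Alternatives were DESeq2 1.42.0, its size factors, no filter, a replicate block, limma 3.58.1 on log2(TPM + 1) or log2(TPM + 0.1), only the 2 tissues compared, and each library left out.

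Summits with a −log10 q of at least 7, the threshold of the study, were placed on curated transcripts of RefSeq (GRCm38, the build of mm10) with Python 3.11.15 and pysam 0.24.0. Overlapping regions of the lists were merged, and motifs were searched within 100 bases of the highest summit; the search was tested on simulated sequences. Alternatives were a −log10 q of 20, all summits, and 2.5 kb or 0.5 kb in place of 1 kb.

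Named were all 10 genes, up to 4 called genes of each pathway list by fold change, Srebf1, Vldlr, Lpl, Pparg, Scarb1 and Npc1, and the 3 genes with the highest Pearson r of log2 CPM to each gene called among tissues; some genes that the rule names are not reported here. Members and lists were chosen with earlier results of these data known. Ctsa, Emg1 and the marker genes named beside a result were added after their values were seen. FPKM values were not used.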

Additional observations from a re-analysis of the deposited data

How the results depend on the processing

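The counts of members called among the 4 tissues, in bone marrow against non-bone marrow and in fBM-MSCs against P-MSCs, and that of other pathway genes, stayed within 1.5 times of the reported ones under every setting that kept all libraries. For fBM-MSCs against vBM-MSCs (1 called) the count was 2 with DESeq2, 2 with the replicate block and 3 with limma at either pseudocount. For A-MSCs against P-MSCs (2 called) it was 1 with limma on log2(TPM + 1). The calls of Nr1h2 for vBM-MSCs against P-MSCs and of Abca1 for fBM-MSCs against P-MSCs were also lost with limma. With each library left out in turn, the counts were 7 to 8 among the 4 tissues, 4 to 7 in bone marrow against non-bone marrow, 1 to 2 in fBM-MSCs against vBM-MSCs, 3 to 6 in fBM-MSCs against A-MSCs, 4 to 6 in fBM-MSCs against P-MSCs, 1 to 3 in vBM-MSCs against A-MSCs, 2 to 5 in vBM-MSCs against P-MSCs and 1 to 2 in A-MSCs against P-MSCs, and 25 to 32 for the other pathway genes. These fits test with fewer samples, and those without a vBM-MSC library assume that the remaining one varies like the other groups. In them, 3 uncalled values of bone marrow against non-bone marrow changed sign, each without vBM-MSC replicate 1: Nr1h3 ranged from −0.23 to 0.76, Rxrb from −0.053 to 0.12 and Lpcat3 from −0.0085 to 0.24. The cause was not tested. At a −log10 q of 20, the genes with a promoter summit fell to 5 each in fBM-MSCs, A-MSCs and P-MSCs, where 63.6%, 70.5% and 71.6% of all tested genes had one.

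Same-numbered libraries of different tissues did not vary together: of 15 such pairs, 1 had a correlation of deviations above 0.1 (range −0.03 to 0.12), and 5 of 11 libraries correlated best with their own number. The numbers were therefore not read as pairs, and with the replicate block the members called were 7 among tissues and 5 in bone marrow against non-bone marrow, while the calls of Nr1h2 for fBM-MSCs against A-MSCs and vBM-MSCs against P-MSCs were lost (edgeR adjusted p = 0.054 and 0.064).

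With 2 or 3 libraries per tissue, the differences of Abcg1, Apoe, Mylip, Nr1h3 and Abca1 have the largest standard errors of the 10 genes, 0.42 to 0.56 on the log2 scale for bone marrow against non-bone marrow. The peak lists allow no replicate error.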
